A study of Drosophila melanogaster with 3 samples.

Results

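The genes described here are the aminoacyl-tRNA synthetase genes of Drosophila melanogaster, the enzymes that load each transfer RNA (tRNA) with its amino acid. The members were chosen with earlier results of these data known, by a rule on symbols. It took every protein-coding gene named by a 3-letter amino acid code followed by RS or RS-m, together with GluProRS, alpha-PheRS and beta-PheRS. There were 35 such genes among 13945 protein-coding genes on the main chromosome arms, 20 for enzymes of the cytosol and 15 with the ending -m for enzymes of mitochondria. Binding of the zinc finger protein az2 was measured by chromatin immunoprecipitation followed by sequencing (ChIP-seq), with an antibody against GFP, in whole embryos of the strain az2-GFP. The embryos were 0 to 16 hours old, of both sexes, and came from 1 transgenic line that stably makes az2 fused at its C-terminus to GFP; per the labels 3 biological replicates form the only group. Untagged embryos were not analysed here, whole embryos mix all cell types, and the labels give no promoter for the fusion. Without read counts in the peak lists, sequencing depth is unknown. Calls rest on 5786 peaks that passed a filter on the irreproducible discovery rate (IDR), which scores the repeatability of peak ranks across replicates.

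A synthetase activates an amino acid with ATP and transfers it to the matching tRNA, which then carries it to the ribosome. Cytosolic synthetases serve the translation of nuclear messenger RNAs, and in animals several of them are held together in a multisynthetase complex. Mitochondria translate their own messenger RNAs and import a separate set of synthetases made from nuclear genes. Some genes, such as those for the glycine and lysine enzymes, supply both compartments in animals, while mitochondrial glutaminyl-tRNA is made indirectly by an amidotransferase. The synthetase genes are active in nearly all cells, so they are housekeeping genes.

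The DNA under the highest peaks shows what the tagged protein was found on. Below are the bases within 60 bp of the summit (the highest point of a peak) for the 4 synthetase genes with the highest signal and for 3 mitochondrial genes, read from the dm6 genome (RefSeq release 6) on the strand of the gene, 5′ to 3′. Capitals mark the longest uninterrupted run of A and T. These are IleRS (chr3L:22288443-22288563, + strand), SerRS (chr2L:3037319-3037439, − strand), GluProRS (chr3R:23958545-23958665, − strand), ThrRS (chr2L:12103509-12103629, + strand), ProRS-m (chr3L:2651948-2652068, − strand), AspRS-m (chr2L:16826969-16827089, + strand) and LeuRS-m (chr3L:4825726-4825846, + strand).
IleRS: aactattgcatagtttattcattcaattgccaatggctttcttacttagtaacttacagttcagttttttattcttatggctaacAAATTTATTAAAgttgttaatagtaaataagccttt
SerRS: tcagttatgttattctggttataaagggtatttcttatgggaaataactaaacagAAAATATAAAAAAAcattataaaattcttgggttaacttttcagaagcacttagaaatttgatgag
GluProRS: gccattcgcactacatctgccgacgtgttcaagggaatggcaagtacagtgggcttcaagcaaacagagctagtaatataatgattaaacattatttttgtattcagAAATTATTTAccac
ThrRS: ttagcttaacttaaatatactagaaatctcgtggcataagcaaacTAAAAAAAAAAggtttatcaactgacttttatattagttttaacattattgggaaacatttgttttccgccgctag
ProRS-m: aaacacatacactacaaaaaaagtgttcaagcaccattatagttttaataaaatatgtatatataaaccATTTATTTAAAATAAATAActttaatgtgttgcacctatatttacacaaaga
AspRS-m: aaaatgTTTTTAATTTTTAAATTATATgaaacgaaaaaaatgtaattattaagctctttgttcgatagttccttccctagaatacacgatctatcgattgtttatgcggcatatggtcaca
LeuRS-m: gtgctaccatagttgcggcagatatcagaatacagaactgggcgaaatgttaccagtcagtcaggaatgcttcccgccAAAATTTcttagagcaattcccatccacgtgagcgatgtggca
The IleRS, SerRS and ThrRS stretches are 25.6%, 25.6% and 28.9% G and C, and that of GluProRS is 38.0%. The ProRS-m and AspRS-m stretches are 21.5% and 28.1%, and that of LeuRS-m, the weakest of all bound members, is 47.9% with a longest A and T run of 7 bases.

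Tagged az2 was found at the promoters of 16 of the 35 synthetase genes (45.7%, exact binomial 95% interval 28.8 to 63.4), where 22.6% of all protein-coding genes had a promoter peak. Promoter-bound means an IDR summit no more than 500 bp from at least 1 annotated transcription start site (TSS) of the gene; intervals cover counting error only. Among cytosolic enzymes 11 of 20 were bound (55.0%, 31.5 to 76.9): IleRS, SerRS, GluProRS, ThrRS, AspRS, AsnRS, beta-PheRS, ValRS, MetRS, GlyRS and ArgRS. Among mitochondrial enzymes 5 of 15 were bound (33.3%, 11.8 to 61.6): CysRS-m, PheRS-m, ProRS-m, AspRS-m and LeuRS-m. The 2 intervals overlap, and genes are not replicates, so no p-value was attached to this difference of 21.7 percentage points.

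The call can also be made in each replicate alone, from its 5786 peaks of highest signal. Replicate 1 gave 13 of 20 cytosolic and 5 of 15 mitochondrial genes, beside 23.6% of all genes. Replicate 2 gave 12 and 5, beside 21.8%, and replicate 3 gave 11 and 4, beside 22.6%. The cytosolic share was above the mitochondrial share in all 3 replicates, by 28.9 ± 2.55 percentage points (SD, n = 3). This spread is that between the biological replicates and does not cover the small number of genes.

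The signals at cytosolic genes reached higher than those at mitochondrial genes. In the pooled IDR list the bound cytosolic genes ran from 160 at ArgRS to 874 at IleRS with a median of 309, and the bound mitochondrial genes from 140 at LeuRS-m to 192 at CysRS-m with a median of 164. The median over all 3157 promoter-bound genes was 280. All 5 mitochondrial signals lay under that median, and 6 of the 11 cytosolic signals lay above it. The ranges overlap: MetRS (201), GlyRS (162) and ArgRS (160) stood among or next to the mitochondrial genes. A gene enters this comparison only with a signal above the lowest in the IDR list, 133.

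IleRS, which charges isoleucine tRNA, had the highest synthetase peak in every replicate. Since the 3 lists have different scales, each replicate signal was divided by the median signal of promoter peaks in that replicate, which gives a relative signal with 1 as the typical promoter peak. IleRS had raw signals of 175, 386 and 311 in replicates 1, 2 and 3, or relative signals of 2.69, 3.44 and 3.24. Its peak ranked 256 of 5786 in the pooled list, above 92.0% of bound genes. SerRS, the serine enzyme, had relative signals of 1.78, 2.64 and 2.73. GluProRS, a fused enzyme that charges both glutamate and proline tRNAs, had 1.62, 2.75 and 2.26. Its low value in replicate 1 depends on the peak used: the peak holding the IDR summit had a raw signal of 105. Another replicate 1 peak within 500 bp of a GluProRS TSS had 158. ThrRS, the threonine enzyme, had 1.84, 2.14 and 1.82. SerRS, GluProRS and ThrRS overlap one another across replicates, and their order differs between replicates. The highest SerRS and GluProRS values also lie just above the lowest IleRS value.

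Below these genes the values lay closer together. AspRS, the aspartate enzyme, had relative signals of 1.53, 1.44 and 1.45, with a mean of 1.47 ± 0.0499 (SD, n = 3) and took place 5 in all 3 replicates, and AsnRS, the asparagine enzyme, had 0.981, 1.26 and 1.17, with a mean of 1.14 ± 0.142. The beta subunit of the phenylalanine enzyme, beta-PheRS, varied most for its level: it had 1.31 in replicate 1 against 0.710 and 0.735 in replicates 2 and 3. Among the remaining cytosolic genes ValRS had 0.779, 0.789 and 0.863 in replicates 1, 2 and 3, and MetRS had 0.584, 0.693 and 0.809. GlyRS had 0.617, 0.603 and 0.678, and ArgRS had 0.597, 0.648 and 0.466. The 9 genes under beta-PheRS, mitochondrial ones included, had means from 0.508 at LeuRS-m to 0.810 at ValRS, less than a typical promoter peak, and most neighbours in that order overlap.

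The 5 bound mitochondrial genes all had low peaks. CysRS-m, the cysteine enzyme, had relative signals of 0.536, 0.715 and 0.765 in replicates 1, 2 and 3. ProRS-m had 0.576, 0.592 and 0.662, and PheRS-m, the single-chain phenylalanine enzyme of mitochondria, had 0.577, 0.577 and 0.603. AspRS-m had 0.652, 0.598 and 0.510, and LeuRS-m had 0.470, 0.569 and 0.484. None reached 1 in any replicate. The median of the bound cytosolic genes was 1.24 ± 0.0723 and that of the bound mitochondrial genes 0.590 ± 0.0134 (SD, n = 3), a ratio of 2.11 ± 0.169 that ranged from 1.93 to 2.27. The highest ratio was in replicate 1, where the cytosolic median was the beta-PheRS value of 1.31. That gene had 0.710 and 0.735 in replicates 2 and 3.

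**Figure D1:**
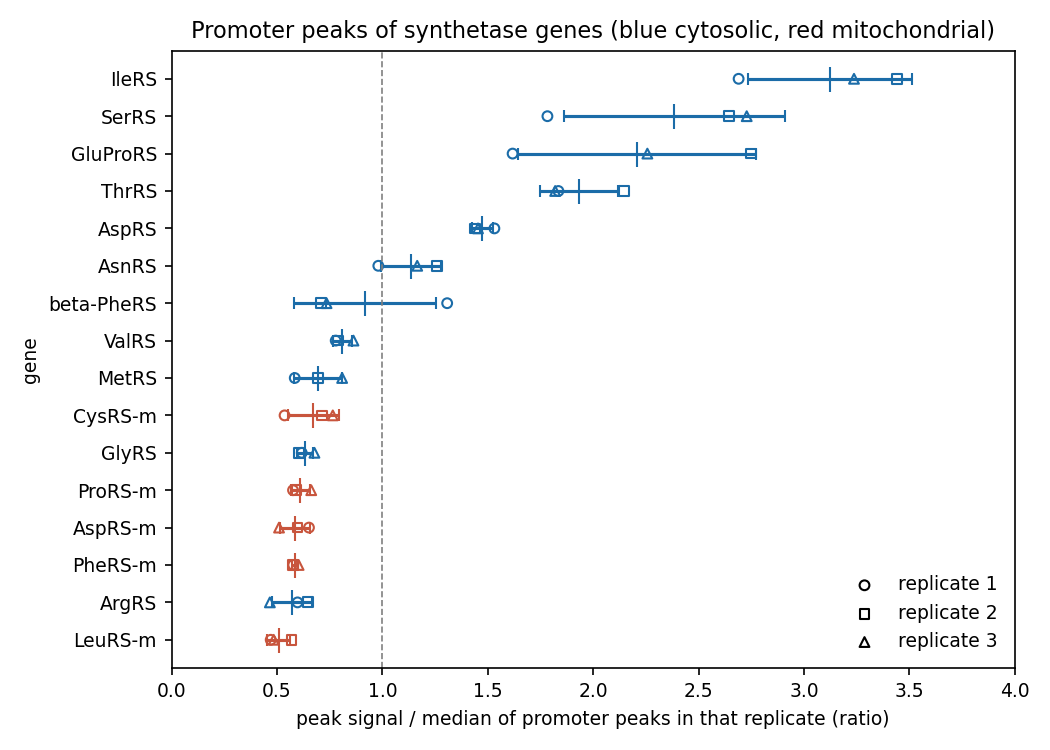
Relative signal (peak signal divided by the median signal of promoter peaks in the same replicate, x axis) of the 16 bound synthetase genes (y axis), with open symbols for the 3 replicates, a tick for the mean and a bar for the SD. IleRS stands highest with 3.12, and the 5 mitochondrial genes (red) lie left of the dashed line at 1.

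Support across replicates was weakest at LeuRS-m, AspRS-m and ArgRS. All 16 IDR summits lay in a listed peak of each complete replicate list. In the lists cut to the 5786 highest peaks, LeuRS-m was covered in replicate 2 only, and AspRS-m and ArgRS were missed in replicate 3. With IDR peaks covered in all 3 cut lists 10 cytosolic and 3 mitochondrial genes remained bound, beside 17.7% of all genes. With the 2893 IDR peaks of higher signal 7 cytosolic genes and 0 mitochondrial genes were bound, beside 13.6% of all genes. The 7 are IleRS, SerRS, GluProRS, ThrRS, AspRS, AsnRS and beta-PheRS. For the mitochondrial genes, 0 of 15 allows a share of up to 20% by the rule of 3 counts.

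The peaks sat just upstream of the genes. Of the 16 summits 15 lay upstream of the nearest TSS of the gene, at 49 to 441 bp, with a median offset of -156 bp; over all bound genes 90.5% lay upstream with a median of -143 bp. CysRS-m, GlyRS, ArgRS, ProRS-m, MetRS and IleRS lay within a few bases of each other in this respect, at -156, -156, -156, -158, -158 and -162 bp. SerRS was the exception, with its summit 24 bp downstream of the TSS in the 5' untranslated region. The annotation places 14 of the 16 summits in intergenic DNA.

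Most of these promoters face a second gene. A head-to-head partner (a neighbour transcribed the other way, starting no more than 500 bp upstream of the 5'-most TSS) stood at 22 of 35 synthetase genes (62.9%) against 28.4% of all protein-coding genes. The cytosolic genes had 15 of 20 and the mitochondrial genes 7 of 15. With a summit within 500 bp of that 5'-most TSS, 11 of these 22 synthetase genes were bound, beside 40.2% of all genes with such a partner. With a summit at any TSS the count was 12, beside 42.3%; the added gene is AspRS, whose peaks lie at an inner start site away from its partner. Among promoters with no other TSS within 500 bp 4 of 12 were bound, beside 14% of all such genes. The remaining gene, HisRS, has another TSS nearby in a different arrangement and was not bound, beside 25.8% of such genes. At the 5'-most TSS of the head-to-head genes 8 of 15 cytosolic and 3 of 7 mitochondrial genes were bound, and among the lone genes, with any TSS, 2 of 4 and 2 of 8. Head-to-head promoters were thus more frequent in the list than in the genome and more frequent in cytosolic than in mitochondrial genes, and their part in the counts was not tested.

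In 6 of the 16 bound genes the TSS nearest to the summit belongs to another gene. The GluProRS summit lies 214 bp upstream of GluProRS and 46 bp from AP-1sigma, a clathrin adaptor subunit gene. The CysRS-m summit lies 12 bp from O-fut1, the protein O-fucosyltransferase gene, and the MetRS summit 87 bp from CG15084. The ProRS-m summit lies 80 bp from CG42304 and Snup, the snurportin gene. The ValRS summit lies 441 bp from ValRS and 72 bp from Kdm4B, a histone demethylase gene. The AspRS summit lies 176 bp from Nmda1. For these 6 genes the peak lists do not show which gene of the pair, if either, the protein relates to. Nor do they at bound head-to-head genes whose own TSS is the nearest, such as SerRS, LeuRS-m and ArgRS. There the summits lie 24, 67 and 156 bp from the synthetase TSS, and the partners start 8, 166 and 331 bp upstream of it. Counting only summits nearest to the synthetase itself left 7 cytosolic and 3 mitochondrial genes, beside 15.9% of all genes.

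**Figure D2:**
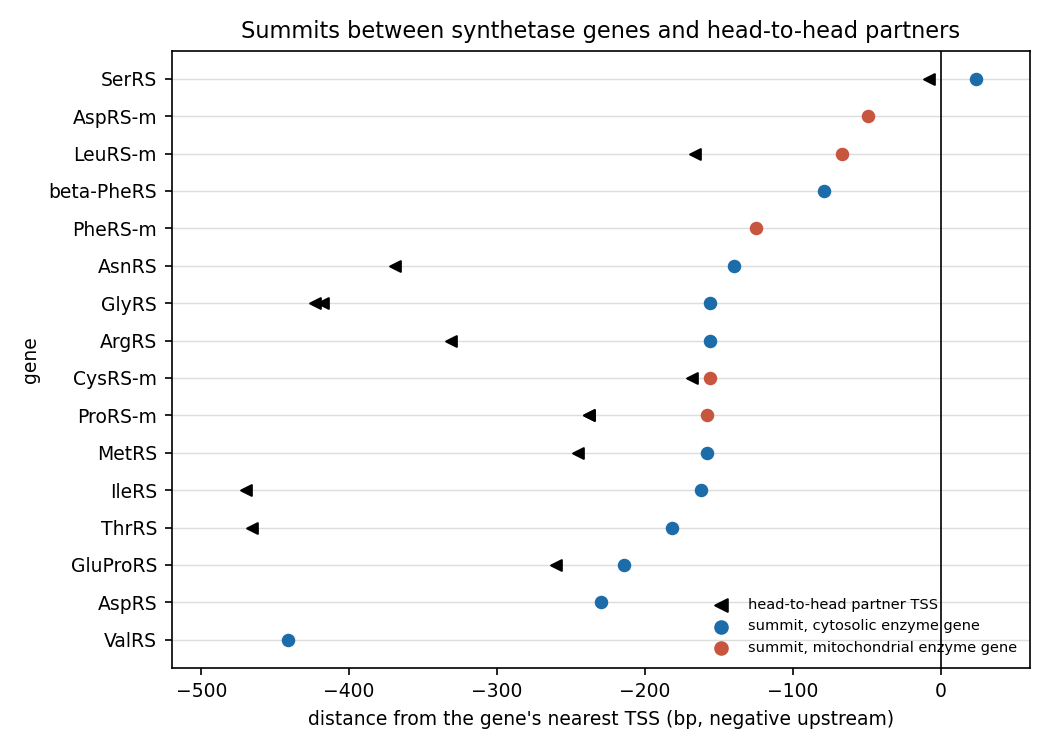
Summits (circles) and head-to-head partner start sites (triangles) at the 16 bound genes (y axis), as distance in bp from the nearest start site of the synthetase gene (x axis, negative upstream). All summits but that of SerRS lie left of 0, and those of CysRS-m, SerRS and GluProRS lie close to the partner. For AspRS, whose peak is at an inner start site, no partner is drawn.

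The partners of the other bound genes are varied. IleRS faces Hem, a gene of the WAVE complex of actin assembly, at 470 bp, and ThrRS faces Patsas at 466 bp. SerRS faces CG17260 at 8 bp. AsnRS faces the dynactin subunit gene DCTN6-p27 at 369 bp, and LeuRS-m faces Dhc64C, the gene of cytoplasmic dynein heavy chain, at 166 bp. GlyRS faces Plp, a centrosome gene, and sstn, and ArgRS faces CG8578 at 331 bp. AspRS-m, PheRS-m, beta-PheRS and ValRS have no partner within 500 bp.

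In dm6 coordinates the peaks were as follows. IleRS had its peak at chr3L:22288327-22288665, SerRS at chr2L:3037209-3037560, GluProRS at chr3R:23958512-23958709 and ThrRS at chr2L:12103466-12103678. AsnRS had chr2L:19131879-19132308, beta-PheRS chr3R:24252543-24252972, GlyRS chr3L:15094771-15095200 and ArgRS chrX:15844086-15844515. ValRS had a short peak of 118 bp at chr2R:13198347-13198464 and MetRS one at chr2R:18850542-18850971. The mitochondrial genes had chr2R:14161203-14161632 (CysRS-m), chr2R:13967968-13968397 (PheRS-m), chr3L:2651793-2652222 (ProRS-m), chr2L:16826814-16827243 (AspRS-m) and chr3L:4825571-4826000 (LeuRS-m).

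AspRS (FBgn0002069) was the only member with a second IDR summit inside the window. The higher peak, chr2R:12879839-12880268 with a signal of 390, has its summit in an intron of AspRS that Nmda1 also overlaps, 230 bp upstream of an inner AspRS start site. The lower one, chr2R:12880041-12880470 with a signal of 159, has its summit 28 bp upstream of the same start site, in a 5' untranslated region of AspRS. The 2 peaks overlap. When each gene was given its 5'-most TSS alone, AspRS was no longer bound, which left 10 cytosolic and 5 mitochondrial genes beside 20.3% of all genes.

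The 19 genes without a promoter peak fall into 3 steps. In the relaxed pooled list, which includes background, SerRS-m (126), alpha-PheRS (122), AlaRS (121) and ArgRS-m (113) had a summit within 500 bp with a signal somewhat below the lowest IDR signal of 133. LeuRS-m, at 140, was the member just inside. These 4 genes had a peak near a TSS in all 3 replicate lists, but none was among the 5786 highest peaks of all 3. AlaRS and alpha-PheRS were among them in 2 replicates, and SerRS-m and ArgRS-m in 1. This is no less than at some bound genes: LeuRS-m was among them in 1 replicate, and ArgRS and AspRS-m in 2. TrpRS-m (81.2), TrpRS (62.3), CysRS (50.8), AlaRS-m (48.8) and TyrRS (38.4) had weaker pooled peaks. The other 10 had no pooled peak: AsnRS-m, GluRS-m, IleRS-m, MetRS-m, TyrRS-m and ValRS-m for mitochondria, and GlnRS, HisRS, LeuRS and LysRS for the cytosol. Of these, HisRS and 5 mitochondrial genes (AsnRS-m, GluRS-m, IleRS-m, TyrRS-m and ValRS-m) had no listed peak near a TSS in any replicate. With the relaxed pooled list 16 cytosolic and 9 mitochondrial genes counted as bound, beside 49.4% of all genes.

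**Figure D3:**
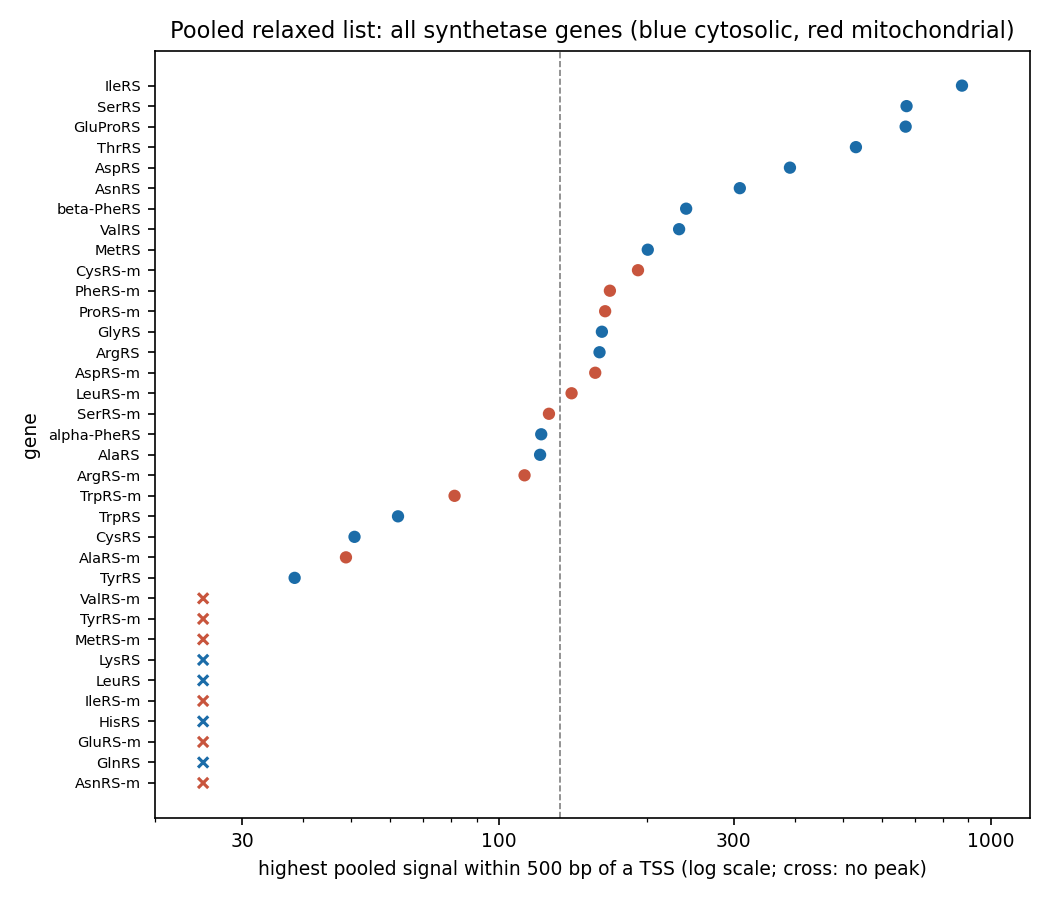
Highest signal of the relaxed pooled list within 500 bp of a TSS (x axis, log scale) for all 35 synthetase genes (y axis); crosses mark genes with no pooled peak and the dashed line the lowest IDR signal of 133. The 16 genes right of the line are the bound ones, 4 lie shortly left of it, and 10 have a cross.

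The alpha and beta subunits of the cytosolic phenylalanine enzyme, which work as one protein complex, lay on both sides of the threshold. beta-PheRS had a pooled signal of 240 and alpha-PheRS 122. In replicate 1 the highest signals near their TSSs were 85.0 and 35.2, in replicate 2 79.6 and 53.7, and in replicate 3 70.5 and 38.4. The beta gene was the higher in all 3 replicates.

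Beyond the window, IDR summits were not close to the unbound genes. The nearest summit lay 1071 bp from AlaRS, 1833 bp from alpha-PheRS and 2178 bp from HisRS, and 18067 bp from MetRS-m, with a median of 6321 bp over the 19 genes. The summit near HisRS lay within the gene, in a coding exon, with a signal of 222; no other unbound member had an IDR summit inside the gene. Widening the window to 1000 bp added no member while the share of all genes rose to 25.9%. Narrowing it to 250 bp removed ValRS alone, beside 17.6% of all genes. Counting any overlap of a peak with the 500 bp window changed no member, beside 24.1% of all genes.

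**Figure D4:**
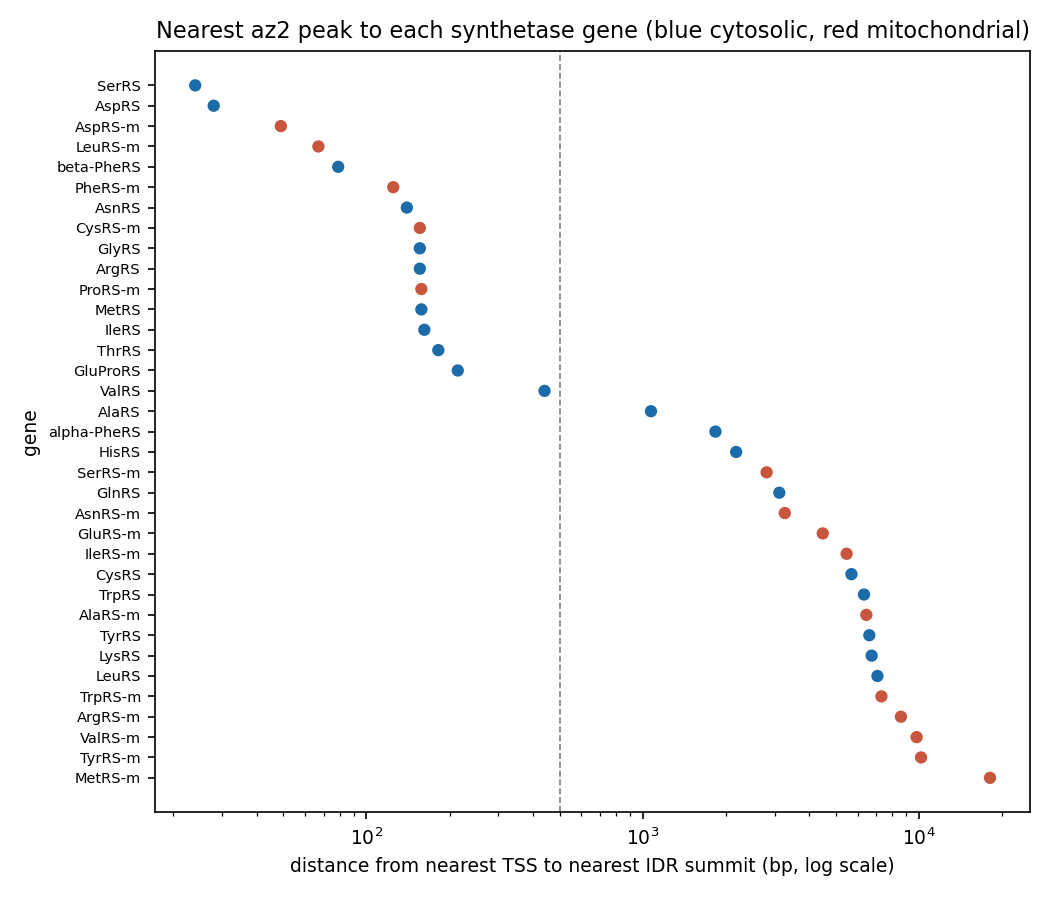
Distance from each of the 35 synthetase genes (y axis) to the nearest IDR summit (x axis, bp, log scale), with the dashed line at 500 bp. No gene lies between 441 bp (ValRS) and 1071 bp (AlaRS).

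Setting a replicate aside, by keeping the IDR peaks covered in both others, lowered the mitochondrial count more than the cytosolic one. The IDR list itself still rests on all 3 replicates, so this rule can only remove genes. Calls made without a replicate were not tested. Without replicate 1 there were 10 cytosolic and 3 mitochondrial genes, beside 19% of all genes, and without replicate 2 the same numbers, beside 19.1%. ArgRS, AspRS-m and LeuRS-m were lost each time. Without replicate 3 there were 11 and 4, beside 18.7%, with LeuRS-m lost. The cytosolic share was above the mitochondrial share under each of these rules, and the mitochondrial share was 20% in the first pair of cases, near that of all genes.

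**Figure D5:**
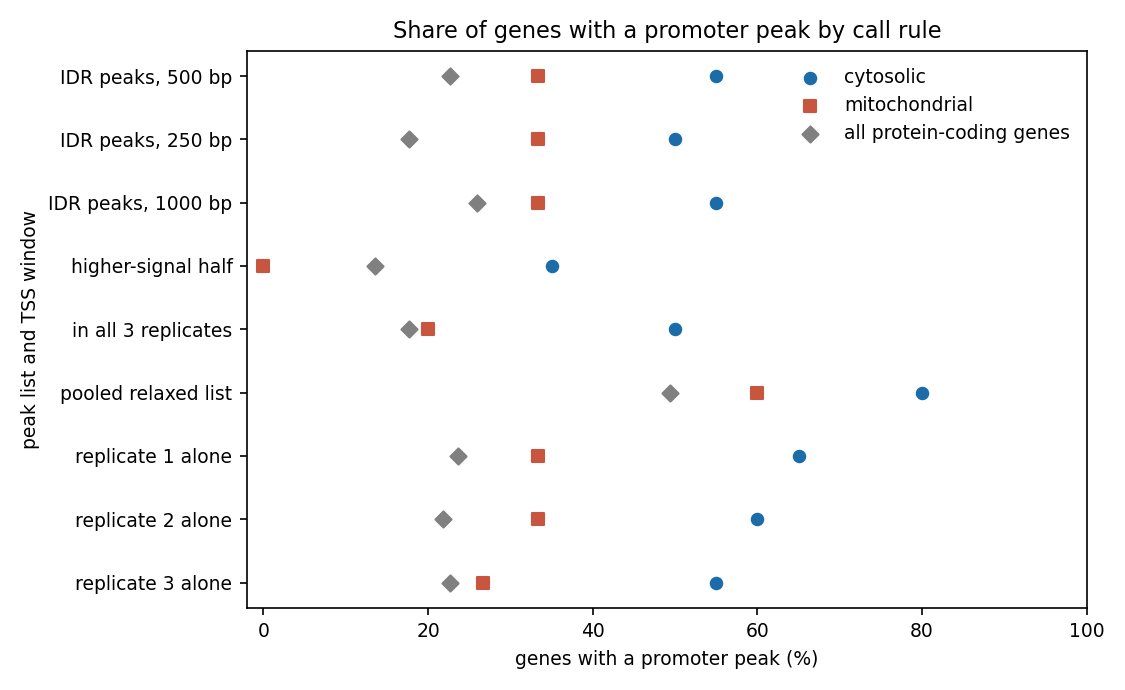
Percent of genes with a promoter peak (x axis) by peak list and window (y axis) for cytosolic synthetase genes, mitochondrial synthetase genes and all protein-coding genes. Cytosolic genes lie between 35% and 80%, and mitochondrial genes between 0% and 60%.

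The genes were also set side by side by amino acid. Of 15 amino acids with an enzyme gene for each compartment, 10 had a bound cytosolic gene and 5 a bound mitochondrial gene. Of the 15, 7 had a promoter peak at the cytosolic gene alone: arginine, asparagine, glutamate, isoleucine, methionine, serine and valine. For cysteine and leucine only the mitochondrial gene was bound. For aspartate, phenylalanine and proline both were, and for alanine, tryptophan and tyrosine neither was. GluProRS counts for both glutamate and proline here, and phenylalanine counts as bound in the cytosol through beta-PheRS alone. By gene, 9 of the 15 cytosolic genes with a mitochondrial namesake were bound (60%). Beside these counts stands the 22.6% of all protein-coding genes. At isoleucine, IleRS had 874 and IleRS-m had no peak near its TSS in the pooled list or in any replicate. At aspartate the bound pair had 390 and 157.

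Of the 5 cytosolic genes with no mitochondrial counterpart among the members, ThrRS and GlyRS were bound and GlnRS, HisRS and LysRS were not. The share over all protein-coding genes was 22.6%. By enzyme class, which reflects the fold of the catalytic domain, 6 of 18 class I genes and 9 of 16 class II genes were bound; GluProRS, with a domain of each class, was left out of this count. The exact intervals, 13.3 to 59.0% and 29.9 to 80.2%, overlap. That of class I includes the share over all protein-coding genes, 22.6%. The 2 classes differ in their mix of compartments. Among cytosolic genes 4 of 9 in class I and 6 of 10 in class II were bound. Among mitochondrial genes the counts were 2 of 9 and 3 of 6. Of the 8 genes whose counterparts belong to the multisynthetase complex in mammals 5 were bound (IleRS, GluProRS, AspRS, MetRS and ArgRS), and LeuRS, GlnRS and LysRS were not. Among the other cytosolic genes 6 of 12 were bound. Beside both of these counts, too, stands the 22.6% of all protein-coding genes. Bound and unbound genes thus stood both inside and outside that complex.

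The summits lay in DNA rich in A and T. Within 50 bp of the 16 summits the median G and C content was 28.7% (19.8 to 46.5), against 41.6% at 200 to 300 bp to either side, and it was lower at the summit in 15 of 16 genes. The exception was beta-PheRS with 37.6% at the summit and 35.6% beside it. Over the 2497 IDR summits within 500 bp of a protein-coding TSS the medians were 32.7% and 42.6%, and the summit was lower in 76.3%. The unbound synthetase promoters also had a dip: at 156 bp upstream of the 5'-most TSS the 19 unbound genes had a median of 31.7% against 48.5% beside it, and it was lower in 18 of 19. The dip was present at bound and unbound members alike.

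Among known promoter motifs, the core of Motif 1, an element of housekeeping promoters bound by M1BP, was present near 4 of 16 summits, those of beta-PheRS, ProRS-m, AspRS-m and ValRS. Its letters, GGTCACACT on either strand, lay within 100 bp of 3.24% of the 2497 promoter summits. The sites at beta-PheRS (chr3R:24252710-24252748, − strand), ProRS-m (chr3L:2652071-2652109, − strand) and AspRS-m (chr2L:16827068-16827106, + strand) read as follows on the strand of the gene, with the match in capitals.
beta-PheRS: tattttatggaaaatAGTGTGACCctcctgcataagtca
ProRS-m: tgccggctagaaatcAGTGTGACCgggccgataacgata
AspRS-m: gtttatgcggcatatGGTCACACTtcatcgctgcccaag
At beta-PheRS and ProRS-m the letters stand on the opposite strand to the gene. The matches begin 54 bp upstream of the TSS at beta-PheRS, 244 bp upstream at ProRS-m and 5 bp downstream at AspRS-m, so they lie 25 bp or more from the summits.

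Apart from CGATA and the E-box, each of the other motifs matched near 1 summit at most. The DNA replication-related element (TATCGATA), found at many housekeeping promoters, was within 100 bp of 0 of 16 summits, beside 6.89% of promoter summits. Within 250 bp before to 50 bp after the 5'-most TSS, that element stood in 5 of 35 synthetase genes (14.3%), against 9.36% of all promoters. Of these 5 genes 3 were bound. CGATA, the core bound by the insulator protein BEAF-32 and contained in that element, was near 6 of 16 summits (37.5%), beside 37.1%. GAGAG was near 1 summit (ArgRS), beside 19.3%, and AGNNGGCGC, the CTCF core, near 1 (PheRS-m), beside 3.12%. Motif 7 was near 1 (ValRS), beside 10.8%. TGATGNAA, the amino acid response element that ATF4 binds in mammals, was near 1 summit, that of beta-PheRS, beside 2.68%. The E-box CAGCTG was near 4 summits (IleRS, MetRS, ArgRS and LeuRS-m), beside 12.2%, 77 to 96 bp away in each case. All were searched on both strands, and a match is only a match of letters.

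Genes that work beside the synthetases were bound in 3 of 10 cases (30%, 6.67 to 65.2), from a list of 11 of which 1, Mtfmt, did not match the annotation; the background of 22.6% holds here too. GatA, a subunit of the mitochondrial amidotransferase that makes glutaminyl-tRNA, had a signal of 447, with 89.8, 211 and 144 in replicates 1, 2 and 3. Its summit (peak chr3R:19028838-19029061) lies 94 bp upstream of GatA and nearer to its head-to-head partner P5cr, a proline synthesis gene. The other subunit genes, GatB and GatC, were not bound, with the nearest summits at 10958 and 2346 bp. crc, which encodes the fly ATF4, a regulator of amino acid stress responses, had a signal of 199 with its summit 360 bp upstream (chr2L:21310291-21310720). Its replicate signals were 56.7, 88.1 and 51.6. Slimp, a seryl-tRNA synthetase-like protein of mitochondria, had 137 with its summit 35 bp upstream (chr3R:24148787-24149216). This peak was weak, at rank 5602 of 5786, with 34.1, 53.0 and 44.8 in replicates 1, 2 and 3. The lowest signals of the cut lists were 34.0, 53.1 and 50.3. The scaffold genes of the multisynthetase complex, AIMP1, AIMP2 and AIMP3, were not bound, nor were Dtd, which removes D-amino acids from tRNA, and Gcn2, the kinase that senses uncharged tRNA.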

How the data were processed

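ChIP-seq peak lists of 3 biological replicates were used; per the labels chromatin was sonicated to 200 to 800 bp. Per the deposited file descriptions, the authors called relaxed lists (peaks plus background) per replicate and on pooled reads against a control alignment, and thresholded them by IDR. The caller, its version and the threshold are not given in the sources used here. The authors' deposited signal (column 7) is an enrichment score never below 0. Deposited column 9 holds −log10 q-values, not used to rank. Deposited column 10, an other kind of value, is the summit offset in bp. Lists of replicates 1 and 3 end at 30000 peaks and that of replicate 2 at 22372.

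Summits (start plus column 10) were set against TSSs of Ensembl BDGP6.54 (release 115, dm6 coordinates) on arms 2L, 2R, 3L, 3R, 4 and X, with Python 3.11.15, pandas 2.3.3 and scipy 1.17.1. The highest peak of each gene was reported. A replicate value is that of the replicate peak holding the IDR summit, and cut lists hold the 5786 highest peaks. No test was run: 1 group has no contrast, and genes are not replicates. The members and lists were chosen with earlier results of these data known. All members are named; partner genes are named by the same rule. The motif letters were spelled out with the files already in view, and the ZIPIC core was not searched. The calling step was checked on simulated peaks. Alternatives changed the window, TSSs, list, overlap and replicates.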

Additional observations from a re-analysis of the deposited data

How the results depend on the processing

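The cytosolic share stayed above the mitochondrial one under every alternative run. Its margin, 21.7 percentage points as reported, stayed at 21.7 with a 1000 bp window and with any overlap and was 20 with the relaxed pooled list. Elsewhere it moved by more than the spread between replicates: it was 15 when only summits nearest to the gene's own TSS counted (chosen after seeing the data), 16.7 points with a 250 bp window and with the 5'-most TSS only, 35 with the 2893 peaks of higher signal, 30 with peaks covered in all 3 cut lists, 28.3 to 30 without 1 replicate, and 26.7 without cytosolic genes that lack a mitochondrial namesake. With the higher-signal peaks the counts were 7 members, 7 cytosolic and 0 mitochondrial, beside 13.6% of all genes. With the relaxed pooled list they were 25 members and 9 mitochondrial, beside 49.4% of all genes. Counting only summits nearest to the gene's own TSS gave 10 members, 7 cytosolic and 3 mitochondrial, beside 15.9%. The mitochondrial count was 3 with peaks covered in all 3 cut lists, beside 17.7%. It was 3 to 4 without 1 replicate, beside 18.7 to 19.1%.

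The median signal of bound members, 216 as reported, was 201 with a 250 bp window or the 5'-most TSS, 236 with 1000 bp, 532 with the higher-signal peaks, 240 with peaks covered in all 3 cut lists, 162 with the relaxed list, and 232 to 240 without 1 replicate. With 1000 bp the same 16 members were bound. Replicate summits lay within 100 bp of the IDR summit in all 3 replicates at 14 of 16 members, and the count of partner genes stayed at 3 with 1000 bp. No read depth is known, so a missing peak is not evidence of no binding.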

Other observations

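The E-box letters CAGCTG were more frequent at synthetase promoters than at all promoters, among bound and unbound genes. Within 250 bp before to 50 bp after the 5'-most TSS they stood in 17 of 35 synthetase genes (48.6%), against 17.7% of all 13945 protein-coding promoters of that length. They were present at 6 of the 16 bound and at 11 of the 19 unbound genes, among the latter TrpRS, TyrRS, HisRS, CysRS and alpha-PheRS of the cytosol and GluRS-m, MetRS-m and TyrRS-m of mitochondria. The core of Motif 1 stood in 5 of 35 such promoters (14.3%), against 6.05%. CGATA stood in 23 (65.7%), against 47.4%, and GAGAG in 6 (17.1%), against 29.7%. These counts were looked at after the data were seen, and no test was made.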
